A study of Homo sapiens with 2 samples.

Results

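MDM2 and 8 target genes of the transcription factor p53 were described in hTERT-RPE1 cells given a miR-129-3p oligo, against cells given a control oligo. The 9 genes were MDM2, CDKN1A, PLK2, DDB2, SESN1, TP53I3, TP53INP1, ZMAT3 and GDF15. They were found through every probe set (a group of short probes that reads 1 transcript region) whose only gene symbol in the platform annotation is one of these names. This gave 26 probe sets for the 9 genes, of 41091 single-symbol probe sets for 19775 genes in all. Since p53 acts mainly at the protein level, and its own transcript is not analysed here, nothing below measures p53 itself.

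The miR-129-3p group and the control group each held 1 Affymetrix array. In both, hTERT-RPE1 cells (a human line from retinal pigment epithelium, made immortal with telomerase) were transfected by the same lipid reagent, grown with serum and hygromycin B, and harvested after 72 h. Per array, 100 ng of total RNA was labelled. The control oligo is not described further in the labels, and no untransfected cells were compared.

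p53 is a transcription factor that is switched on by DNA damage and other stresses. It binds pairs of short half-sites near its target genes and raises their transcription, which can halt the cell cycle, repair DNA, adjust metabolism or start cell death. MDM2 is both a target and the main inhibitor of p53: it tags p53 for degradation, so the pair form a negative feedback loop. RPE1 cells are widely used to study this arrest because their p53 response is intact.

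The transfected miRNA is shown first because its seed, bases 2 to 8 from the 5′ end and in capitals here, sets which transcripts it can pair with. RefSeq (GRCh38.p14) lists human miR-129-3p from 2 loci, and the labels do not say which of these the oligo copies. Both have the seed AGCCCUU and differ by U20C, counted from the 5′ end, with the chromosome 7 form given first.
hsa-miR-129-1-3p (chr7:128207920-128207941, plus strand): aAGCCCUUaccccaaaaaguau
hsa-miR-129-2-3p (chr11:43581450-43581471, plus strand): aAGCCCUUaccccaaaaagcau

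The second set of sequences is shown because paired p53 half-sites are the element through which p53 acts on its targets. Windows of 250 bases before to 50 bases after each annotated start were taken from RefSeq (GRCh38.p14) for 8 of the 9 genes, 15 windows in all. They were searched for 2 copies of the 10-base p53 half-site consensus, which reads the same on both strands, separated by 0 or 1 base and with at most 3 mismatches in total. These limits were chosen after the windows had been read, and the genes were picked as p53 targets. The shares below are therefore a description and no test. Such pairs were found for 4 of the 8 genes, MDM2, DDB2, SESN1 and GDF15, beside 11.9% of 27305 genes. They were in 5 of the 15 windows, beside 9.75% of all RefSeq windows of this length. Those 5 include overlapping MDM2 windows that hold the same pairs. With at most 2 mismatches, 2 of the 8 genes had a pair, MDM2 and DDB2, beside 1.69% of all genes.

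In MDM2 the pairs lie before its second, inner start site, a promoter known for its response to p53. In the stretch below (chr12:68808913-68809016, plus strand), capitals mark the pairs, one with 2 mismatches and the other with 3.
MDM2: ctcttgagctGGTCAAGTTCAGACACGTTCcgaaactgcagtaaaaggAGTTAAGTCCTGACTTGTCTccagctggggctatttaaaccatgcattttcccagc

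In DDB2 the pair runs from base 6 to base 26 after a start site and has 0 mismatches with a 1-base spacer, in lower case below. Only 7 of 35116 windows held a pair with 0 mismatches. A pair with 1 mismatch overlaps it, sharing a half-site. The pairs of SESN1 and GDF15 have 3 mismatches each.
DDB2 (chr11:47214979-47214999, plus strand): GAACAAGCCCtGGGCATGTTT
SESN1 (chr6:109009018-109009037, minus strand): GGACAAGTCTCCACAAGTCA
GDF15 (chr19:18386186-18386205, plus strand): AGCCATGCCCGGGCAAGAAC

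No such pair was found in the windows of CDKN1A, PLK2, TP53I3 and ZMAT3. That says only that these letters are not within these windows. The best known p53 sites of CDKN1A, for example, lie further upstream. A match describes the sequence and does not show that p53 was bound in these cells.

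The 9 genes did not move one way. Each gene was represented by its brightest probe set, judged by the mean log2 level of both arrays. MDM2, CDKN1A, DDB2 and GDF15 were higher with miR-129-3p by 2-fold or more, ZMAT3, PLK2 and TP53INP1 were lower by 2-fold or more, and SESN1 and TP53I3 lay between these limits. All differences are miR-129-3p minus control on the scale log2(signal + 16), which understates the differences of dim probe sets. The higher call was made for 4 of the 9 genes, beside 7.83% of the 12754 genes whose signal reached 100 on either array, and the lower call for 3 of the 9, beside 4.56%. At 1.5-fold, 5 were higher, beside 17.3%, and 3 lower, beside 10.8%. At 3-fold, 3 were higher (CDKN1A, DDB2 and GDF15), beside 3.71%, and 0 lower, beside 1.73%. Several calls lie at the limit: after loess MDM2 stood at 0.99 and PLK2 at -0.997, MDM2 at 0.98 after quantile normalization, and TP53INP1 at -0.999 after median centring and at -0.54 as the mean of its probe sets. The median over the 9 genes was 0.66, beside 0.03 over all genes, but it turned to -1.01 over the 5 genes left without probe sets ending in _x_at or _s_at. With 1 array in each group no difference has a replicate error and none was tested. Each compares these 2 arrays and not the conditions, and in bulk RNA a change in some cells and a change in all cells cannot be told apart.

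Counted by probe set, 20 of the 26 reached a signal of 100 on the higher array. Of those 20, 9 were higher by 2-fold or more, beside 7.55% of 23707 such probe sets in all, and 6 were lower by as much, beside 4.80%. MDM2 alone supplied 6 of the 9, and the 9 fell to 8 with signals under 100 set to 100. At 1.5-fold, without that change, the higher and lower counts were 11, beside 16.7%, and 7, beside 11.1%. At 3-fold they were 4, beside 3.26%, and 1, beside 1.76%. The other 6 probe sets, 3 of MDM2, 2 of GDF15 and 1 of TP53INP1, had signals from 11.1 to 99.98 on either array. As a yardstick for disagreement within a gene, the differences of probe sets of the same gene had a pooled SD of 0.37 over 6179 genes. That spread lies within the arrays and leaves out the spread between cultures.

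**Figure D1:**
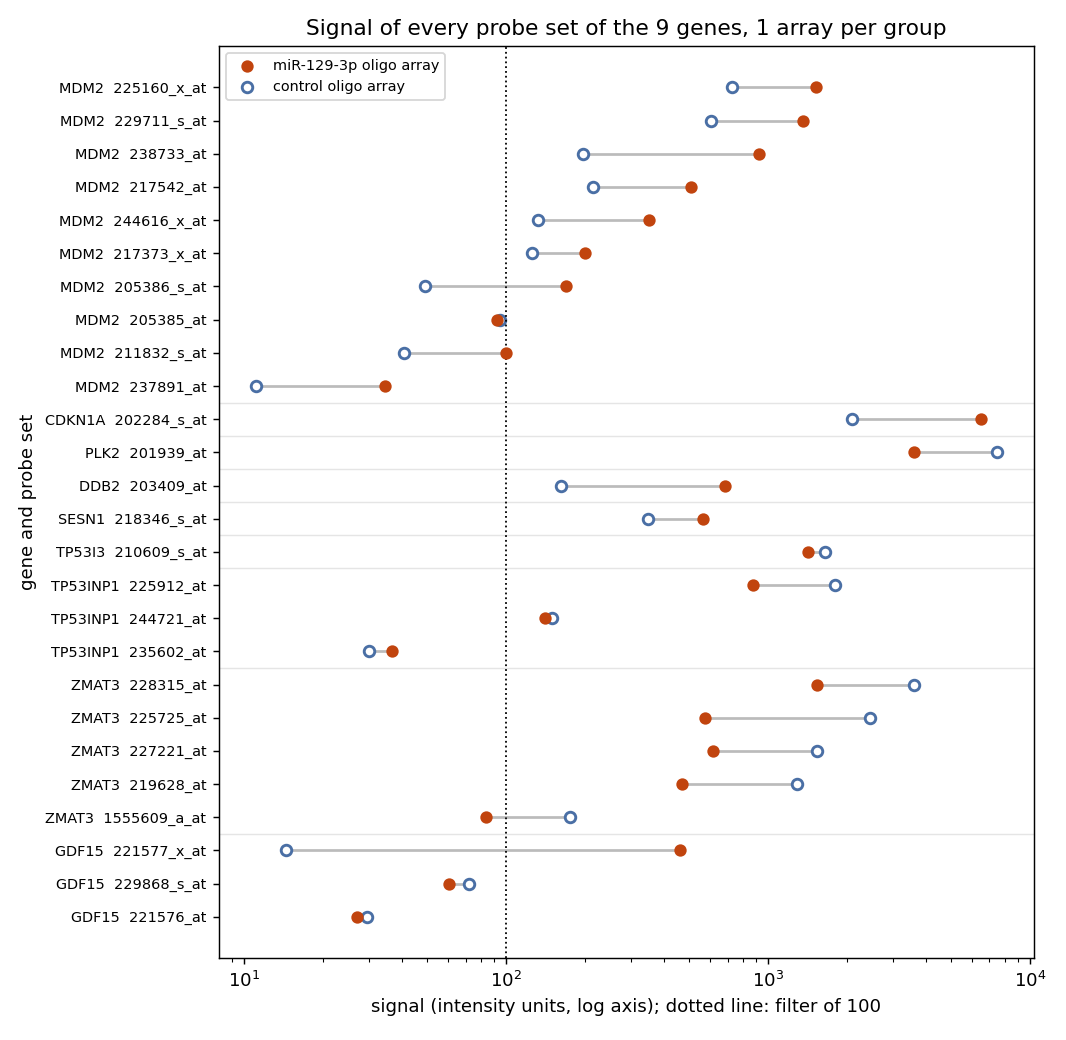
Signal of each of the 26 probe sets (intensity units, log axis) on the miR-129-3p array (filled) and the control array (open), 1 array per group, with grey bars joining the 2 values and a dotted line at the filter of 100. Filled points lie right of open ones for 9 of the 10 MDM2 probe sets and left of them for all 5 ZMAT3 probe sets.

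MDM2, the ubiquitin ligase that inhibits p53, was read by 10 probe sets, and 9 of the 10 had the higher signal on the miR-129-3p array. Its brightest, 225160_x_at, read 1529 with miR-129-3p and 731 in control, a log2 difference of 1.05. The next, 229711_s_at, read 1354 with miR-129-3p and 606 in control, a difference of 1.14. These 2 lay just past the 2-fold limit.

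A larger difference of MDM2 came from 238733_at, which read 923 with miR-129-3p and 197 in control, or 2.14 on the log2 scale. Probe set 205386_s_at read 170 with miR-129-3p and 48.9 in control, a difference of 1.52, or at least 1.70-fold higher with that control signal raised to 100. The smallest difference above the filter, 0.62, came from 217373_x_at, at 201 with miR-129-3p and 125 in control. Probe set 217542_at read 509 with miR-129-3p and 215 in control (1.19), and 244616_x_at read 350 with miR-129-3p and 133 in control (1.30). All 7 MDM2 probe sets past the filter were thus higher by 1.5-fold or more and 6 of them by 2-fold or more. Of the 6, 205386_s_at passed the filter only through the miR-129-3p array, and its bound given above is short of 2-fold. The median difference of the 7 was 1.19, with an SD between probe sets of 0.47. Of these 7, only 238733_at and 217542_at lack the suffix _x_at or _s_at, which marks less specific probe sets.

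Below the filter, the MDM2 probe set 205385_at did not separate the arrays, with 92.5 on the miR-129-3p array and 94.7 on the control array. The other 2 dim MDM2 probe sets had the higher signal with miR-129-3p, at 99.98 with miR-129-3p and 40.6 in control on 211832_s_at and at 34.6 with miR-129-3p and 11.1 in control on 237891_at. Which MDM2 transcript or start site each probe set reads is not given in the sources used here, so the inner promoter shown above cannot be tied to any of them.

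CDKN1A encodes p21, the inhibitor of cyclin-dependent kinases that carries out much of the p53 arrest. Its only probe set, 202284_s_at, read 6523 with miR-129-3p and 2085 in control, a log2 difference of 1.64 or 3.11-fold on this scale. Of all 12754 genes, 3.45% had a difference at least as high. No other probe set of the gene was at hand to set beside it.

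PLK2, a polo-like kinase that p53 induces and that acts in centriole duplication and the stress response, went the other way. Its probe set 201939_at read 3620 with miR-129-3p and 7467 in control, a log2 difference of -1.04. Of all genes, 4.34% had a difference as low or lower. These arrest genes therefore lay at opposite ends, p21 higher and PLK2 lower.

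DDB2 encodes the damage-sensing subunit of the UV-DDB complex, which starts nucleotide excision repair. Its single probe set, 203409_at, read 687 with miR-129-3p and 162 in control. The log2 difference was 1.98, or 3.95-fold on this scale, and 2.42% of genes had a difference at least as high. Among genes with a single probe set it was the member with the largest higher difference. Its partner in the complex, DDB1, is not a classical p53 target and read 1989 with miR-129-3p and 2365 in control (-0.25).

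SESN1 (sestrin 1) links p53 to antioxidant defence and restrains mTORC1, the growth-promoting kinase complex. It read 562 with miR-129-3p and 349 in control, a log2 difference of 0.66. That is past 1.5-fold and short of 2-fold. Its paralog SESN2, named here for that relation, stood at 0.53 (523 with miR-129-3p and 357 in control), and SESN3 was under the filter on both arrays.

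TP53I3, also called PIG3, is a quinone oxidoreductase known from the generation of reactive oxygen species after p53 activation. It read 1423 with miR-129-3p and 1651 in control. The difference of -0.21 is smaller than the SD of 0.37 between probe sets of a gene.

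TP53INP1, a nuclear protein that takes part in p53-dependent cell death and in autophagy, gave readings that depended on the probe set. The brightest, 225912_at, read 879 with miR-129-3p and 1793 in control, a difference of -1.01 that lies just past 2-fold. The second, 244721_at, read 141 with miR-129-3p and 149 in control (-0.07), and the third was under the filter at 36.6 with miR-129-3p and 29.9 in control. The lower call thus rests on 1 of its 3 probe sets. Its paralog TP53INP2 read 596 with miR-129-3p and 1032 in control (-0.78).

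ZMAT3, also called PAG608 or Wig-1, encodes a zinc-finger protein that binds RNA and acts on splicing and RNA stability downstream of p53. All 5 of its probe sets were lower with miR-129-3p. The brightest, 228315_at, read 1539 with miR-129-3p and 3614 in control (-1.22). The largest difference was on 225725_at, at 573 with miR-129-3p and 2452 in control (-2.07).

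The other ZMAT3 probe sets gave the same order of the arrays. Probe set 227221_at read 617 with miR-129-3p and 1535 in control (-1.29), and 219628_at read 471 with miR-129-3p and 1292 in control (-1.43). The dimmest, 1555609_a_at, read 83.6 with miR-129-3p and 175 in control (-0.94). Thus 4 of 5 were lower by 2-fold or more and all 5 by 1.5-fold or more. Their median difference was -1.29 with an SD between probe sets of 0.42. ZMAT3 and MDM2, each read by at least 5 probe sets past the filter, differed in opposite directions between these arrays. Probe sets of a gene share the arrays and are not replicates.

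GDF15 is a secreted cytokine of the TGF-beta superfamily that rises in many forms of cell stress. It had the largest difference of the 9 genes, on a probe set that stood alone. 221577_x_at read 462 with miR-129-3p and 14.4 in control, a log2 difference of 3.97 that depends on the constant added to so dim a control signal. With the control signal raised to the filter of 100 the gene was at least 4.62-fold higher. With all signals under 100 set to 100 its difference was 2.04, which ranked 229 of 12770 genes.

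The other GDF15 probe sets did not show this. 229868_s_at read 60.8 with miR-129-3p and 71.9 in control, and 221576_at read 27.0 with miR-129-3p and 29.3 in control. Both were under the filter on both arrays. The suffix _x_at marks a probe set whose probes may also match other transcripts, so the higher reading of GDF15 rests on 1 of 3 probe sets and on the kind that is least specific.

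**Figure D2:**
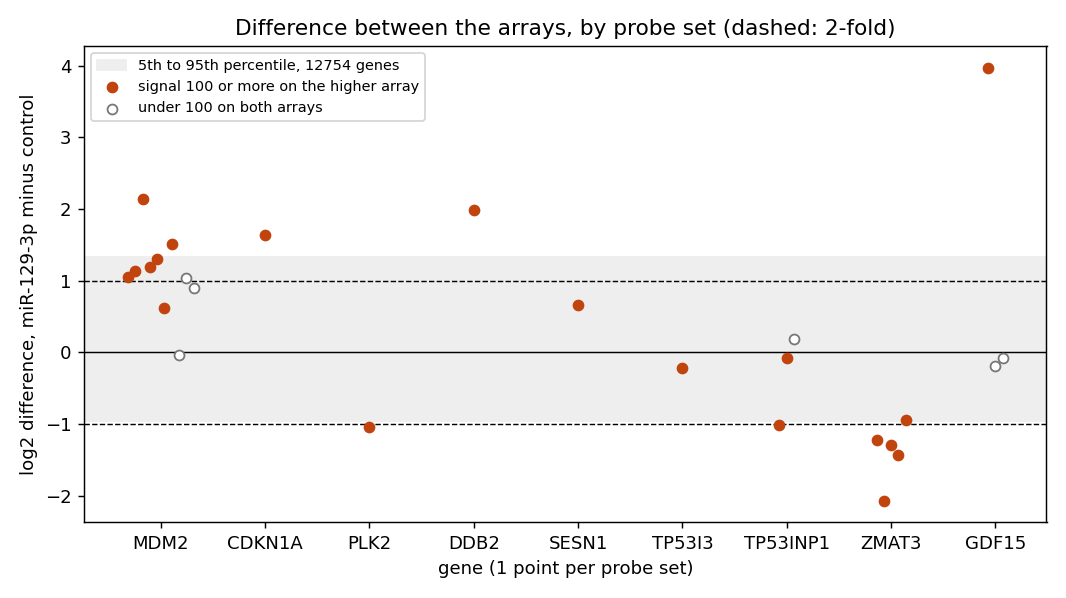
Log2 difference of each probe set (miR-129-3p minus control, log2(signal + 16)) by gene, with filled points past the filter and open points under it, dashed lines at 2-fold and a grey band from the 5th (-0.96) to the 95th (1.33) percentile of 12754 genes. MDM2 points lie between -0.03 and 2.14, ZMAT3 points between -2.07 and -0.94, and GDF15 has 1 point at 3.97 with 2 near 0.

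The rest of the pathway was described through a list of 77 other genes, sorted by role. Of these, 70 had a single-symbol probe set here and 66 passed the filter. The list was fixed with earlier results of these data known. Its shares, and those of its roles, are therefore a description and no test. Of the 66, on the brightest probe set of each, 18 (27.3%) were higher with miR-129-3p by 2-fold or more and 0 lower by as much, beside 7.83% and 4.56% of all genes. With signals under 100 set to 100, 17 of the 66 were higher by as much. The median difference of the 66, without that change, was 0.32, beside 0.03 over all genes. The absence of lower calls depends on the probe set used. THBS1, which encodes the secreted matrix protein thrombospondin 1, was at -0.83 on its brightest probe set, but 6 of its 7 probe sets were at least 2-fold lower, down to -3.58. GTSE1, a mitotic gene whose product restrains p53, was at 0.18 on its brightest probe set and at least 2-fold lower on the other 3 past the filter. Both were singled out after their values were seen.

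Among regulators of p53, 15 genes passed the filter, and 1 (6.67%) was at least 2-fold higher, close to the 7.83% of all genes. That gene was CHEK2, the checkpoint kinase that phosphorylates p53 after DNA breaks, at 353 with miR-129-3p and 148 in control (1.17). PPM1D, the phosphatase that switches p53 off and is itself a target, stood at 0.59. TP53BP1, a DNA break sensor, was at 0.41, and DAXX, a protein of nuclear bodies, at 0.40. The acetyltransferase gene EP300 stood at 0.37.

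MDM4, the relative and partner of MDM2 that also blocks p53, read 1707 with miR-129-3p and 1536 in control (0.15). Its 4 probe sets past the filter ran from 0.15 to 0.43. The kinases ATM, ATR and CHEK1 stood at 0.22, 0.27 and 0.14. The ubiquitin ligases RCHY1 and COP1 stood at 0.15 and -0.17, and the deubiquitinase USP7 at 0.10. SIRT1, a deacetylase, was at 0.18, and RPL11, a ribosomal protein that can bind MDM2, at -0.18. HIPK2, a kinase of p53, read lowest on its brightest probe set, at -0.29, and the 8 past the filter reached up to 1.02.

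Other arrest genes gave 1 higher call among 7, beside 7.83% of all genes. E2F7, a repressor of cell cycle genes that p53 induces, read 1262 with miR-129-3p and 485 in control (1.35), but stood at 0.26 on its other probe set. GADD45A, a stress sensor, was at -0.76 and CCNG1, which encodes cyclin G1, at -0.48, both short of 2-fold lower and singled out after their values were seen. The median over this role was -0.02.

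Of 12 cell death genes past the filter, 6 were higher by 2-fold or more, beside 7.83% of all genes, and the median of the role was 0.93. The highest were XAF1, at 6430 with miR-129-3p and 11.1 in control, or at least 64.3-fold higher with that control signal raised to 100, CASP1, which encodes the inflammatory caspase 1 (3.02), and the TRAIL receptor gene TNFRSF10A (2.42). All 3 are also known as interferon-induced genes. BAX, a pore-forming target of p53, stood at 0.48 and 0.56 on its 2 probe sets. PERP, a membrane protein, was at -0.97, with the 3 of its 5 probe sets past the filter between -1.28 and -0.65. BAX and PERP were singled out after their values were seen.

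Of 5 repair genes, RRM2B, the p53-inducible ribonucleotide reductase subunit, was at least 2-fold higher at 2150 with miR-129-3p and 965 in control (1.14). XPC, a damage sensor that works with DDB2 and was singled out after its value was seen, read 2213 with miR-129-3p and 1197 in control (0.88). In the metabolic role SCO2, a cytochrome c oxidase assembly factor, was the only one of 6 past 2-fold, at 1102 with miR-129-3p and 475 in control (1.19). Of all genes, 7.83% were higher by 2-fold or more. The medians of the repair and metabolic roles were 0.36 and 0.40.

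Of 16 signalling, secretion and membrane genes past the filter, 8 were higher by 2-fold or more, beside 7.83% of all genes. The largest differences were those of PML, the scaffold of nuclear bodies (2.36), TRIM22, an antiviral ubiquitin ligase (2.14), and KITLG, the ligand of the KIT receptor (1.76). KITLG read 945 with miR-129-3p and 267 in control on the only one of its 4 probe sets past the filter. PML and TRIM22 are likewise known interferon-induced genes. ACER2, also among the 8, read 120 with miR-129-3p and 51.0 in control, so it passed the filter only through the miR-129-3p array. With that control signal raised to 100 it was at least 1.20-fold higher. It was singled out after its values were seen. The role of relatives and partners of the 9 genes gave 0 calls among 5 past the filter, beside 7.83% higher and 4.56% lower over all genes. DDB1, TP53INP2, the kinase inhibitors CDKN1B (-0.07) and CDKN1C (-0.62) and the mitotic kinase PLK1 (-0.78) were all below 0. CDKN1C read 88.4 with miR-129-3p and 145 in control, and PLK1 read 89.5 with miR-129-3p and 165 in control. Both are dim and passed the filter only through the control array. SESN2 (0.53) and MDM4 (0.15), also relatives of members, were sorted under other roles and were above 0. PLK3, a relative of PLK2 named here for that relation, was sorted under arrest. It stood at -0.02 on its brightest probe set and at 0.47 on the other past the filter. The shared direction in this role thus depends on the sorting.

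Because 6 list genes (XAF1, CASP1, TNFRSF10A, FAS, PML and TRIM22) are also known as interferon-induced, the counts were taken again without them, a choice made after the values were seen. All 6 were themselves higher by 2-fold or more, from a log2 difference of 1.26 for FAS to the bound given above for XAF1. Of the other 60 genes 12 were higher by 2-fold or more and 0 lower by as much, beside 7.83% and 4.56% of all genes. Their median was 0.20. The part of an interferon response in the values of the 9 genes was not tested.

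**Figure D3:**
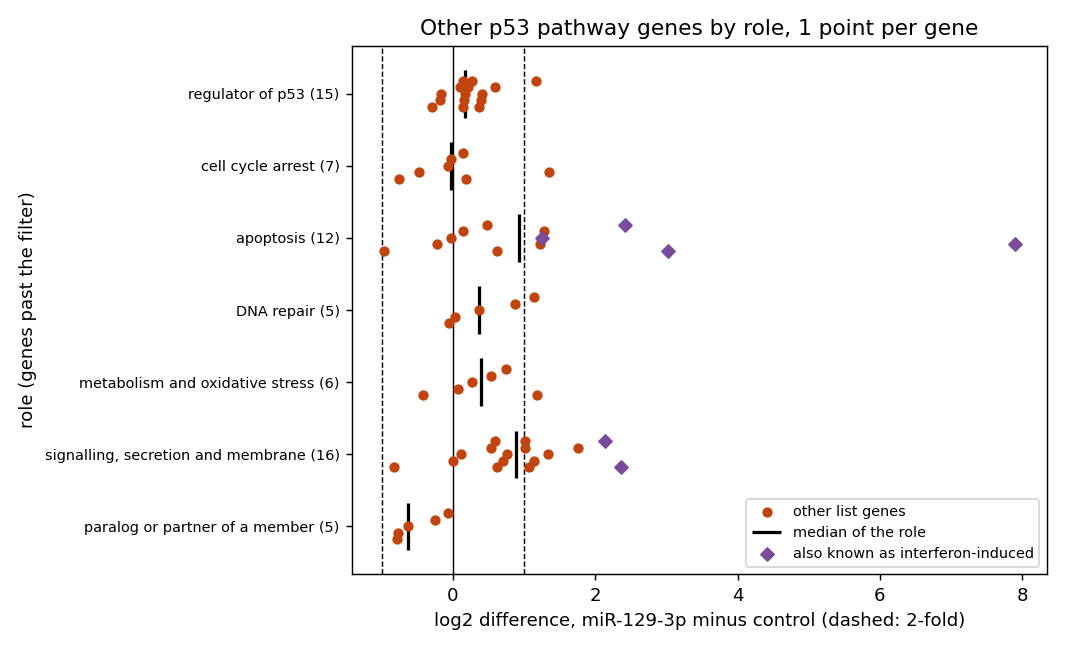
Log2 difference (miR-129-3p minus control) of the 66 other p53 pathway genes past the filter by role, 1 point per gene on its brightest probe set. Diamonds mark the 6 genes set apart as interferon-induced, black bars the role medians and dashed lines 2-fold. Role medians run from -0.62 for relatives and partners of the 9 genes to 0.93 for cell death genes. The relatives SESN2, MDM4 and PLK3 are plotted under other roles.

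As a check of the material, the arrays had median signals of 98.0 with miR-129-3p and 96.5 in control. Of 5 epithelial marker genes, KRT8, KRT18, TJP1 and CDH2 were well above 100 on both arrays. The other, CDH1 (E-cadherin), read only 89.7 with miR-129-3p and 103 in control, while CDH2 (N-cadherin) read 5448 and 6947. The pigment epithelium genes MITF and OTX2 were well above 100 on both arrays. RPE65, BEST1, RLBP1, TYR and SERPINF1, which mark mature retinal pigment epithelium, were under 100 on both. PMEL, the last of the 8 such markers, read 229 with miR-129-3p and 114 in control. That control reading is under those of the blood gene HBB (162) and the liver gene APOA1 (131). The label is thus clearly borne by MITF and OTX2 only. MITF read 1020 with miR-129-3p and 2470 in control. Of 8 marker genes for blood, liver and neurons, HBB, APOA1 and SNAP25 reached 100 on each array, none above 162, while PTPRC, CD14 and ALB were under 100 on both.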

How the data were processed

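The values deposited by the authors are linear intensities, 1 for each of 54613 probe sets on each of 2 arrays, and range from 1 to 20822. MAS5 and RMA are named by the submitters' processing notes. Which of these made the intensities, their versions, the background correction, detection calls and the scaling between arrays are not given in the sources used here. If dim signals were floored or compressed, their differences would be affected.

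Probe sets were named from the platform annotation (41091 with 1 symbol, 1801 with several, left out, and 11721 not listed there), and 41037 of the 41091 matched RefSeq genes (GRCh38.p14) by gene ID. Differences are miR-129-3p minus control of log2(signal + 16). The filter was 100 on the higher array, and each gene took its brightest probe set by mean log2 level. No test was made with n = 1 per group, and the number of arrays limits the precision of every value. Members and lists were chosen with earlier results of these data known. All 9 members are named whatever their values, and of the wider list all regulators and relatives past the filter and, per role, up to 3 genes at each end that passed 2-fold. Genes named outside that rule are marked. No likeness of pattern to other genes can be measured over 2 arrays. Alternatives were 3 scalings, constants of 1 and 64, other filters, probe set kinds, fold limits and gene means. Code was tested on simulated data. Tools were pandas 2.3.3 and numpy 2.4.6 under Python 3.11.15, with statsmodels 0.14.6 for loess and matplotlib 3.10.9 for figures.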

Additional observations from a re-analysis of the deposited data

How the results depend on the processing

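No paired analysis was possible because each group held 1 array, and for the same reason no replicate could be left out. No direction of any of the 9 genes turned under the 3 scalings (median centring, loess trend, quantile), the constants of 1 and 64, or the other filters. The 2-fold call of some genes near the limit did: MDM2 on its brightest probe set stood at 0.99 after loess and 0.98 after quantile normalization, PLK2 at -0.997 after loess, and TP53INP1 at -0.999 after median centring and -0.98 with a constant of 64. GDF15 ranged from 2.04 with signals under 100 set to 100, through 2.75 with a constant of 64, to 4.91 with a constant of 1, and TP53INP1 was at -0.54 as the mean of its probe sets.

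Without the less specific probe sets (suffix _x_at or _s_at) there were 5 of the 9 genes and 11 probe sets to count. There 2 genes and 3 probe sets were at least 2-fold higher, 3 genes and 6 probe sets at least 2-fold lower, and the median over genes was -1.01, so the sign of that median rests on which probe sets are used. MDM2 was then at 2.14. In the wider list 1 gene, THBS1, became at least 2-fold lower there, and 2 genes, THBS1 and GTSE1, did so with the mean of all probe sets. With a 3-fold limit, 0 of the 9 genes were lower, beside 1.73% of all genes. Of the probe sets 1 was lower and 4 were higher, beside 1.76% and 3.26%. Of the 66 list genes 6 were higher at that limit, beside 3.71% of all genes. These were XAF1, CASP1, TNFRSF10A, PML, TRIM22 and KITLG, and all but KITLG are also known as interferon-induced. With a 1.5-fold limit 26 of the 66 list genes were higher, beside 17.3% of all genes, and 6 lower, beside 10.8%. Without MDM2, a choice made after seeing the data, 3 of 13 probe sets passed 2-fold as higher, beside 7.55% of all such probe sets. As lower, 6 passed, beside 4.80%. The other alternatives left each count within 1.5 times, and each median within 0.37, of the reported value.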
